A study of Mus musculus with 6 samples.

Results

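Scavenger receptors and receptors for apoptotic cells were followed as a group of 10 genes, Msr1, Marco, Scarb1, Scarb2, Olr1, Stab1, Lrp1, Axl, Mertk and Mfge8, chosen by name from the 54532 genes of the expression table. All 10 were found. The cells were labelled as primary mouse peritoneal macrophages elicited with thioglycollate and purified by adherence. Both groups of 3 libraries received interferon-γ (2 ng/mL) and lipopolysaccharide (10 ng/mL) for 8 h. In the control group the labels give shControl and the genotype WT, and in the other group they give SAHH-KO and the genotype SAHH knockdown. How the enzyme S-adenosylhomocysteine hydrolase (SAHH, gene Ahcy) was lowered, and whether replicates came from separate animals or cultures, is not stated in the labels, so p-values measure the spread between these libraries, which may be technical. No unstimulated cells were analysed here.

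Scavenger receptors are surface proteins with which macrophages take up modified lipoproteins, bacterial products and cell debris. Efferocytosis is the uptake of dying cells: soluble bridging proteins such as MFG-E8 and GAS6 bind phosphatidylserine on the dying cell and dock it to integrins or to the receptor tyrosine kinases TYRO3, AXL and MERTK. In arterial walls the first process feeds lipid into foam cells, and the second clears them.

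Values are FPKM, that is, fragments divided by gene length and by library size. Comparison between genes is approximate, because 1 length per gene stands for all its transcripts. For Scarb1 that length was 8500 bases, with 11 annotated transcripts. The order of the genes and their shares of a sum carry that limit. Libraries held 15540442 to 17748745 reads assigned to genes. Ahcy was 4.22-fold lower in SAHH-KO (24.3 ± 1.59 against 5.75 ± 0.419 FPKM, SD, n = 3), although 68.7% of its 50-base words also occur in other genes, mainly Gm4737, so its reads are uncertain. All 10 general macrophage markers examined were expressed, with a summed level of 8698 to 9072 FPKM in control and 9853 to 11125 FPKM in SAHH-KO, and 7 of them were called higher in SAHH-KO and 0 lower (limma, adjusted p under 0.05, which 26.4% of all tested genes passed as higher), or 5 and 1 with TPM. Of 6 markers of resident peritoneal macrophages, Gata6, Timd4 and Vsig4 had 0 reads in every library, and Icam2 alone reached 1 FPKM in at least 3 libraries. Among 43 markers of other cell types (T, B, mast, dendritic and endothelial cells, neutrophils, eosinophils, fibroblasts and mesothelium), S100a8 alone did so, with means of 4.63 FPKM (control) and 0.189 FPKM (SAHH-KO). The neutrophil genes S100a9, Ly6g and Mpo were at 0. The summed level of the 6 neutrophil markers was 4.76 to 5.66 FPKM in control and 0.503 to 0.820 FPKM in SAHH-KO. S100a8 carried nearly all of that difference. Camp, named after its value was seen, lay at 0.521 ± 0.136 and 0.415 ± 0.121 FPKM, with overlap. The part of these markers in the results was not tested. In bulk RNA, fewer cells of a type and less RNA per cell cannot be told apart.

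The 10 genes ranged from abundant to nearly undetected. Msr1 and Lrp1 lay near 100 FPKM, Mfge8, Scarb1 and Scarb2 between 6.83 and 9.27 FPKM, and Stab1 between 1.96 and 4.18 FPKM. Olr1 and Axl were at the lower edge of detection in control, and Marco and Mertk had 2 reads each over all 6 libraries. Between the groups, Axl rose in SAHH-KO, and the other 6 genes that could be tested missed the threshold of an adjusted p of 0.05. Of all 10362 tested genes 53.3% passed it, 2736 (26.4%) as higher and 2782 (26.8%) as lower, a split that became 2006 and 3894 with TPM and 2033 and 3905 with assigned-read scaling. Axl met the requirement for testing, at least 1 FPKM in at least 3 libraries, only through the SAHH-KO libraries, so it had to differ once tested, and the count of 1 of 7 carries that limit.

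**Figure D1:**
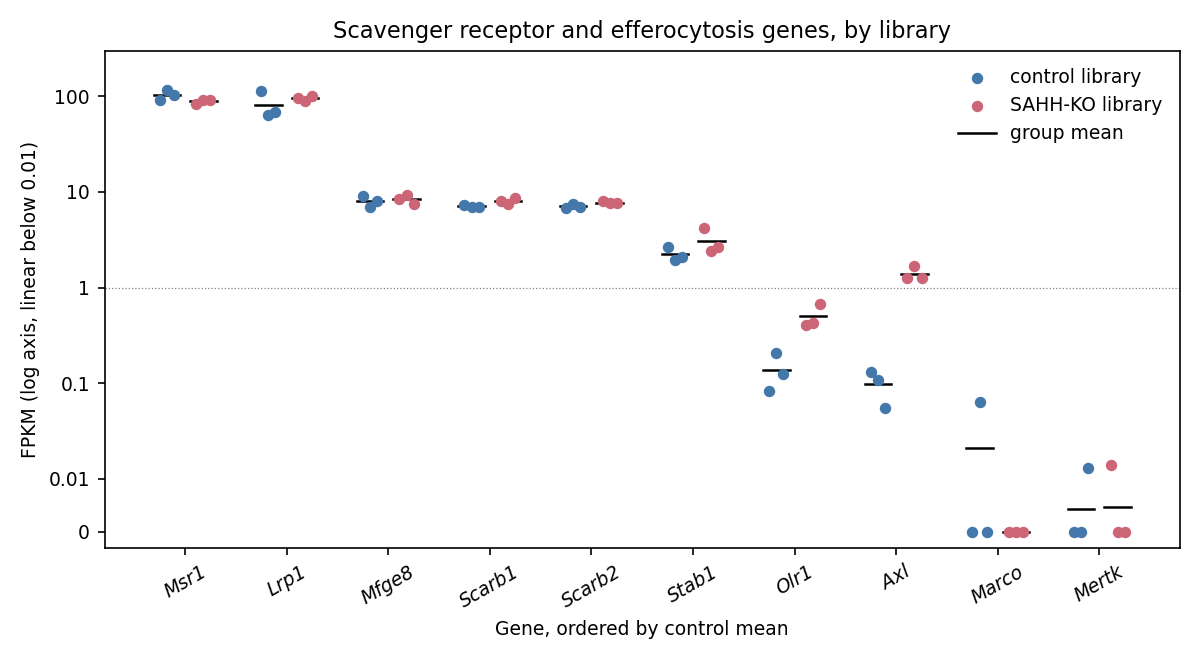
FPKM of the 10 genes in each library (y axis, logarithmic, linear below 0.01; dots are libraries, black bars group means, the dotted line 1 FPKM), ordered by control mean. Msr1 and Lrp1 stand near 100 FPKM in both groups, Axl and Olr1 show separate groups at low level, and Marco and Mertk lie at or near 0.

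The order of the levels was similar in both groups. In control it ran Msr1 (104 ± 13.3 FPKM), Lrp1 (81.8 ± 27.4), Mfge8 (8.05 ± 1.02), Scarb1 (7.10 ± 0.156), Scarb2 (7.09 ± 0.347), Stab1 (2.25 ± 0.378), Olr1 (0.138 ± 0.0617) and Axl (0.0984 ± 0.0386). Neighbours whose libraries overlapped, and which were not ordered beyond their spread, were Msr1 with Lrp1, Mfge8 with Scarb1, Scarb1 with Scarb2, Olr1 with Axl, and the genes from Axl down to Mertk. In SAHH-KO, Lrp1 (95.3 ± 6.06 FPKM) and Msr1 (89.4 ± 4.76) again overlapped, as did Mfge8 with Scarb1 and Scarb1 with Scarb2, while Axl lay above Olr1 with no overlap. Msr1 and Lrp1 together made up 88.2% ± 0.626 of the summed FPKM of the 10 genes in control and 86.3% ± 0.842 in SAHH-KO. The sum itself was 211 ± 18.3 and 214 ± 6.84 FPKM.

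In the gene group, the class A scavenger receptors, which bind acetylated and oxidized low-density lipoprotein, were Msr1 and Marco. Msr1 was abundant and Marco was not. Colec12, a collectin-type scavenger receptor given with the related genes, was also abundant in control (95.7 FPKM) and fell to 31.5 FPKM in SAHH-KO. Msr1 (ENSMUSG00000025044, chromosome 8, bases 39581685 to 39642673, minus strand, GRCm38) read 91.4, 118 and 103 FPKM in control and 83.9, 91.8 and 92.6 FPKM in SAHH-KO. Control replicate 1 fell within the SAHH-KO range and the other control libraries lay above it. The log2 fold change was -0.21 (SE 0.103, 95% interval -0.44 to 0.03, limma adjusted p = 0.119). Msr1 passed the threshold as lower without control replicate 1 (-0.30, limma adjusted p = 0.0224). It also passed when libraries were scaled to TPM (-0.37, adjusted p = 0.0147 by limma) or by their assigned reads (-0.37, adjusted p = 0.0163 by limma), which move the median of all tested genes to -0.16 and -0.14. Marco (ENSMUSG00000026390, chromosome 1, bases 120474538 to 120505024), a receptor for bacteria and particles, had 2 reads in control replicate 2 (0.0634 FPKM) and 0 in each of the other libraries. For a gene of its length a count of 0 allows up to 0.0872 to 0.102 FPKM, depending on the library, by counting error only, so a difference was not detectable at this depth.

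Lrp1 encodes a large endocytic receptor for lipoprotein remnants, proteases and calreticulin-bearing dying cells. Its gene (ENSMUSG00000040249, chromosome 10, bases 127538161 to 127621148, minus strand) read 113, 63.7 and 68.3 FPKM in control against 96.1, 88.9 and 101 FPKM in SAHH-KO. Control replicate 1 was above all SAHH-KO libraries and the other control libraries were below all of them. Its log2 fold change was 0.26 (SE 0.195, 95% interval -0.18 to 0.71, limma adjusted p = 0.285). Without control replicate 1, Lrp1 was called higher in SAHH-KO (0.52, SE 0.0799, limma adjusted p = 0.00138). It was not called without control replicate 2 (0.11, limma adjusted p = 0.659) or without control replicate 3 (0.16, limma adjusted p = 0.584). On the log2(FPKM + 1) scale control replicate 1 exceeded the mean of the other controls by 0.77 for Lrp1. The median of the same difference over the 854 tested genes of at least 10000 bases, a class that holds Lrp1, was 0.01. Msr1 was lower in the same library by 0.26. The ratio of Lrp1 to Msr1 was 1.24, 0.540 and 0.666 in the control libraries and 1.14, 0.968 and 1.09 in SAHH-KO, so the groups overlapped.

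Of the class B receptor family, Scarb1 and Scarb2 did not pass the threshold, while Cd36, given with the related genes, fell. Scarb1 encodes the receptor that takes cholesteryl esters from high-density lipoprotein, and Scarb2 a lysosomal membrane protein that carries glucocerebrosidase. Scarb1 (ENSMUSG00000037936, chromosome 5, bases 125277087 to 125341094, minus strand) read 7.28, 7.01 and 7.002 FPKM in control and 8.04, 7.54 and 8.58 FPKM in SAHH-KO. Every SAHH-KO library was above every control library, yet the log2 fold change of 0.16 missed the threshold (SE 0.0811, 95% interval -0.03 to 0.35, limma adjusted p = 0.129). Scarb2 (ENSMUSG00000029426, chromosome 5, bases 92441314 to 92506833, minus strand) read 6.83, 7.49 and 6.96 FPKM in control and 7.97, 7.59 and 7.59 FPKM in SAHH-KO, again without overlap. Its log2 fold change was 0.11 (SE 0.0786, 95% interval -0.07 to 0.29, limma adjusted p = 0.280). Groups failed to overlap for 62.3% of all tested genes, so the separation of Scarb1 and Scarb2 is common in this table. For Scarb2 the direction was reversed, to -0.04 and -0.03, with TPM and assigned-read scaling, and for Scarb1 the difference shrank to 0.02 under both.

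Stab1 encodes stabilin-1, a class H receptor that clears oxidized lipoprotein and matrix fragments and also binds phosphatidylserine. The gene (ENSMUSG00000042286, chromosome 14, bases 31139013 to 31168641, minus strand) read 2.68, 1.96 and 2.10 FPKM in control and 4.18, 2.44 and 2.67 FPKM in SAHH-KO. SAHH-KO replicate 1 was the highest library and the other SAHH-KO libraries overlapped the control range. The log2 fold change was 0.32 (SE 0.165, 95% interval -0.06 to 0.70, limma adjusted p = 0.137), and without SAHH-KO replicate 1 it was 0.14 (limma adjusted p = 0.416). With the replicate number as a block Stab1 passed as higher (0.32, limma adjusted p = 0.0404), although whether the numbers pair the libraries is not known. With limma-voom on the reads it did not pass (0.44, adjusted p = 0.0637).

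Olr1 and Axl were the genes with separate groups at low level. Olr1 encodes LOX-1, a lectin-like receptor for oxidized low-density lipoprotein, and Axl a receptor tyrosine kinase that engages phosphatidylserine through GAS6. The 250 bases before the RefSeq start of each gene are shown because their transcripts were the ones with more reads in every SAHH-KO library than in any control library at this low level. Both windows are on the minus strand of GRCm38.p6 and read 5′ to 3′, at chr7:25788734-25788983 for Axl and chr6:129507166-129507415 for Olr1, and capitals mark motif matches.
Axl: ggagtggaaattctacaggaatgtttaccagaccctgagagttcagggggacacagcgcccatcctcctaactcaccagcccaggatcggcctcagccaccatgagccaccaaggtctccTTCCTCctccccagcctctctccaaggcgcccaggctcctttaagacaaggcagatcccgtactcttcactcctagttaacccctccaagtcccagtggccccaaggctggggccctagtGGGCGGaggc
Olr1: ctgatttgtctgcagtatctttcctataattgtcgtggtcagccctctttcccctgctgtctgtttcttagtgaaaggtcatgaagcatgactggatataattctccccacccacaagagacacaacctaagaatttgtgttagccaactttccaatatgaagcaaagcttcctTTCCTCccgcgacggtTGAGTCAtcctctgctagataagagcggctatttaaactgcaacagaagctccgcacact
Searched on both strands were the interferon-stimulated response element (GAAA, any 2 bases, GAAA), the interferon-γ-activated site (TTCNNNGAA), AP-1 (TGANTCA), PU.1 (GAGGAA), Sp1 (GGGCGG) and the NF-κB consensus. The Axl window held a PU.1 match on the opposite strand, which begins 130 bases before the start, and an Sp1 match that begins 10 bases before it. The Olr1 window held a PU.1 match on the opposite strand from 76 bases and an AP-1 match from 60 bases before the start. No 2 marked matches overlapped. Of 32851 windows of this length in the table, 23.2% held a PU.1, 32.7% an Sp1 and 6.75% an AP-1 match. Matches to the interferon-stimulated response element (2.98% of windows), the interferon-γ-activated site (7.02%) and NF-κB (3.90%) were not among the letters of these 2 windows. A match is a description of letters, not of a bound site.

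Axl (ENSMUSG00000002602, chromosome 7, bases 25757273 to 25788705, minus strand) read 0.131, 0.109 and 0.0556 FPKM in control and 1.27, 1.67 and 1.27 FPKM in SAHH-KO. In reads these were 11, 9 and 5 against 106, 128 and 98. The groups lay far apart relative to their spread, and the ratio of the means was 14.2 (0.0984 ± 0.0386 against 1.40 ± 0.234 FPKM). On the log2(FPKM + 1) scale, which understates changes of low genes, the log2 fold change was 1.12 (SE 0.114, 95% interval 0.86 to 1.39, limma adjusted p = 9.05e-05). Over the 12 other planned settings in which Axl was tested, limma adjusted p-values were 2.75e-06 to 0.000781. All but the one with no filter tested it through its SAHH-KO libraries, so they add no support to the call. Over all 6 libraries, 0.125% of the tested genes had a lower mean level than Axl, a rank that its control libraries pull down. The SAHH-KO mean alone, 1.40 FPKM, lay just above the filter of 1 FPKM.

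Olr1 (ENSMUSG00000030162, chromosome 6, bases 129485244 to 129507165, minus strand) stayed under 1 FPKM everywhere and was not in the fit. It read 0.0836, 0.205 and 0.125 FPKM in control, from 5, 12 and 8 reads, and 0.404, 0.423 and 0.673 FPKM in SAHH-KO, from 24, 23 and 37 reads. The groups did not overlap, and the ratio of means was 3.62. The exact two-sided permutation test over the libraries gave p = 0.10, the smallest value that 3 against 3 allows. With no filter on low genes the log2 fold change was 0.40 (limma adjusted p = 0.0216, where 23.3% of 22729 genes were called), and with limma-voom on the reads it was 1.85 on voom's scale of log2 reads per library size (adjusted p = 0.00306 by limma, where 44.3% of 15122 genes were called).

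The kinases that share ligands with Axl were absent or nearly so. Mertk, the main efferocytosis kinase of many tissue macrophages (ENSMUSG00000014361, chromosome 2, bases 128698956 to 128802894, plus strand), had 1 read in control replicate 3, 1 in SAHH-KO replicate 1 and 0 elsewhere. A count of 0 allows up to 0.0387 to 0.0455 FPKM for its length. Tyro3, named after its value was seen, had 11 reads over all 6 libraries. Of their ligands, Gas6 fell from 3.42 ± 0.511 to 1.62 ± 0.187 FPKM (a log2 change of -0.75, SE 0.116, limma adjusted p = 0.000858), and no library of the SAHH-KO group (1.75, 1.70 and 1.40 FPKM) reached the control libraries (3.56, 2.85 and 3.84 FPKM). Pros1, which encodes protein S and was named after its value was seen, lay at 2.02 ± 0.192 and 2.15 ± 0.0605 FPKM (limma adjusted p = 0.588).

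Mfge8, the bridge from phosphatidylserine to αv integrins (ENSMUSG00000030605, chromosome 7, bases 79133768 to 79149060, minus strand), read 9.03, 6.99 and 8.13 FPKM in control and 8.50, 9.27 and 7.54 FPKM in SAHH-KO. The groups were interleaved. The log2 fold change was 0.06 (SE 0.112, 95% interval -0.19 to 0.32, limma adjusted p = 0.664), and the sign turned to -0.09 with TPM, to -0.08 with assigned-read scaling and to -0.02 without control replicate 2. The genes of its integrin receptors did differ: Itgav, the αv subunit, rose from 8.44 ± 1.05 to 19.3 ± 3.38 FPKM (limma adjusted p = 0.000227). Itgb5, its β5 partner, named here after its value was seen, rose from 2.83 ± 0.0855 to 6.13 ± 1.52 FPKM (limma adjusted p = 0.00105). Itgb3, the β3 partner, also looked at after its value was seen, was counted at 8 reads over the control libraries and at 0 over the others.

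**Figure D2:**
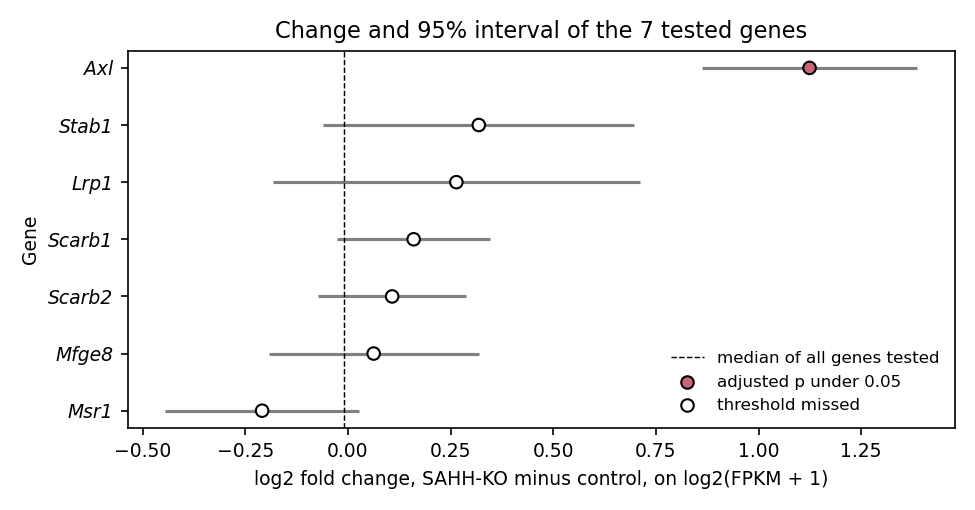
Log2 fold change (x axis, SAHH-KO minus control, on log2(FPKM + 1)) of the 7 tested genes with 95% intervals from limma; a filled point passed an adjusted p of 0.05. Axl, at 1.12, stands apart from the other 6 genes, whose intervals all include 0.

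Genes with the pattern most like that of Axl were sought among 9028 tested protein-coding genes, by the mean absolute difference of log2(FPKM + 1), centred on each gene's control mean, over the 6 libraries. The nearest were Arhgef3 (difference 0.0561), Lpar1 (0.0630) and Pxk (0.0645). Arhgef3, which encodes a guanine nucleotide exchange factor, went from 17.7 ± 0.613 to 40.8 ± 2.11 FPKM. Lpar1, a lysophosphatidic acid receptor gene, went from 4.95 ± 0.336 to 11.9 ± 0.435 FPKM, and Pxk from 4.37 ± 0.147 to 11.4 ± 0.485 FPKM. These genes were far more abundant than Axl, so the likeness is one of the change on this scale and not of level or ratio. The means rose 2.31-fold for Arhgef3, 2.41-fold for Lpar1 and 2.61-fold for Pxk, against 14.2-fold for Axl.

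Around the 10 genes, 6 lists of 82 related genes were read from the same fit. Of the 55 that were tested, 16 were higher and 19 lower, or 63.6% called, beside 53.3% of all genes. With TPM or assigned-read scaling 13 were higher and 26 lower. In the list of other scavenger receptors 5 of 15 genes were tested, with 1 higher and 3 lower and a median log2 fold change of -1.28, where all tested genes had a median of -0.01. Colec12, a collectin-type scavenger receptor, fell from 95.7 ± 4.42 to 31.5 ± 1.47 FPKM (log2 fold change -1.57, limma adjusted p = 1.90e-06). Cd36, the class B receptor for oxidized lipoprotein and long-chain fatty acids, read 75.2, 102 and 86.8 FPKM in control and 33.6, 37.4 and 35.6 FPKM in SAHH-KO (-1.28, SE 0.114, limma adjusted p = 4.60e-05). Scarf1, a class F receptor that binds C1q on dying cells, fell from 4.91 ± 1.46 to 0.0441 ± 0.0230 FPKM (limma adjusted p = 9.52e-06) and was tested only through its control libraries. Cxcl16, a chemokine whose membrane form binds oxidized lipoprotein and phosphatidylserine, rose from 17.5 ± 0.689 to 33.0 ± 1.29 FPKM (limma adjusted p = 3.45e-05). Cd68, a late-endosomal glycoprotein that is often used as a macrophage marker and was named after its value was seen, lay at 595 ± 47.0 and 614 ± 37.8 FPKM (limma adjusted p = 0.677).

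**Figure D3:**
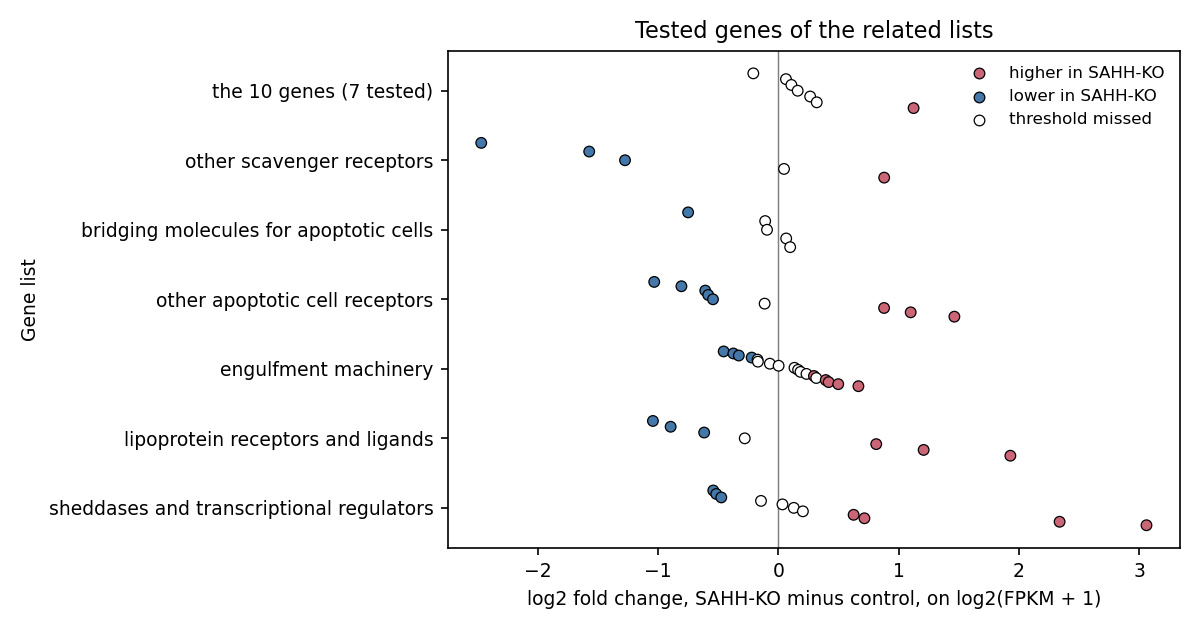
Log2 fold change (x axis, SAHH-KO minus control, on log2(FPKM + 1)) of each tested gene in the 10-gene group and the 6 related lists (y axis); red and blue points passed an adjusted p of 0.05 as higher and lower, and white points missed it. In the top line 1 of 7 points is coloured, where 53.3% of all tested genes were called. Coloured are 4 of 5 other scavenger receptors, 1 of 5 bridging molecules and 8 of 9 genes listed with other apoptotic cell receptors. The last list also holds Cd47, a signal that restrains phagocytosis, and its receptor gene Sirpa. In the remaining lists 9 of 18 engulfment, 6 of 7 lipoprotein receptor and 7 of 11 sheddase and regulator genes are. Axl, Scarf1 and Havcr2 were tested only through 1 group.

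Other receptors and signals for apoptotic cells split by gene: of 9 tested, 3 were higher and 5 lower (median -0.54). That is 88.9% called beside 53.3% of all genes. Cd47, the signal that restrains phagocytosis, rose from 13.9 ± 1.38 to 40.1 ± 3.12 FPKM (limma adjusted p = 9.40e-06). Its receptor gene Sirpa, named after its value was seen, fell from 86.9 ± 9.51 to 59.2 ± 4.78 FPKM (limma adjusted p = 0.00222). Cd300a, an inhibitory phosphatidylserine receptor, fell from 11.3 ± 0.464 to 5.004 ± 0.269 FPKM (limma adjusted p = 2.15e-05). Havcr2, which encodes TIM-3, fell from 2.20 ± 0.209 to 0.831 ± 0.120 FPKM (limma adjusted p = 0.000332) and was tested only through its control libraries. Timd4 and Havcr1 of the same family had 0 reads.

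Among 5 tested bridging molecules Gas6 was the 1 that was called, as lower, with a median over the 5 of -0.10. That is 20% called beside 53.3% of all genes. The complement genes C1qb and C1qc had 0 reads and C1qa had 3 over all libraries. Thbs1, which encodes thrombospondin-1 and was named after its value was seen, was counted at 104 reads over the control libraries and at 0 over the others. Against a floor of 3 reads over the group it was at least 32.1-fold lower, and it was too low to enter the fit.

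Of 18 tested genes of the engulfment machinery 5 were higher and 4 lower, or 50% called beside 53.3% of all genes, with a median of 0.15. That split depended on the scaling: 2 were higher and 7 lower with TPM and with assigned-read scaling. All 10362 tested genes shifted too, to 2006 higher and 3894 lower with TPM and to 2033 and 3905 with assigned-read scaling. The engulfment split was 3 and 3 without control replicate 3, 5 and 2 without SAHH-KO replicate 2, and 4 and 2 without SAHH-KO replicate 3. Ucp2, a mitochondrial carrier linked to continued uptake of dying cells, rose from 62.7 ± 5.98 to 99.8 ± 0.209 FPKM (limma adjusted p = 0.000307). Abca7, a lipid transporter of the phagocytic cup, rose from 8.06 ± 1.44 to 11.7 ± 0.442 FPKM (limma adjusted p = 0.00729). The actin regulator gene Was fell from 38.1 ± 2.03 to 29.1 ± 0.569 FPKM (limma adjusted p = 0.00331), and Elmo2, an adaptor that activates Rac, from 6.13 ± 0.286 to 4.22 ± 0.506 FPKM (limma adjusted p = 0.00479).

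Lipoprotein receptor genes related to Lrp1 moved both ways, with 3 of 7 tested higher and 3 lower (median -0.28). That is 85.7% called beside 53.3% of all genes. Lrpap1, the chaperone that escorts LRP1 to the surface, fell from 29.6 ± 2.46 to 13.8 ± 0.328 FPKM (limma adjusted p = 2.58e-05), and Lrp8 from 3.13 ± 0.504 to 1.21 ± 0.0993 FPKM (limma adjusted p = 0.000293). Mylip, the ubiquitin ligase that degrades the low-density lipoprotein receptor, rose from 1.80 ± 0.287 to 9.65 ± 1.04 FPKM (limma adjusted p = 5.21e-06), and Lrp10 from 26.4 ± 4.404 to 62.0 ± 5.28 FPKM (limma adjusted p = 8.54e-05).

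Of the sheddases and transcriptional regulators of these receptors, 4 of 11 tested were higher and 3 lower (median 0.13). That is 63.6% called beside 53.3% of all genes. Adam10, a protease that sheds surface receptors, fell from 25.7 ± 3.07 to 18.1 ± 0.342 FPKM (limma adjusted p = 0.00336), and Adam17, the MERTK sheddase, named after its value was seen, lay at 44.7 ± 0.490 and 45.8 ± 1.45 FPKM (limma adjusted p = 0.712). Nr1h2, which encodes the oxysterol receptor LXRβ, rose from 14.0 ± 0.785 to 22.1 ± 1.30 FPKM (limma adjusted p = 0.000379). Irf1, an interferon-response transcription factor gene, rose from 1.67 ± 0.134 to 22.0 ± 7.35 FPKM (limma adjusted p = 6.43e-06).

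**Figure D4:**
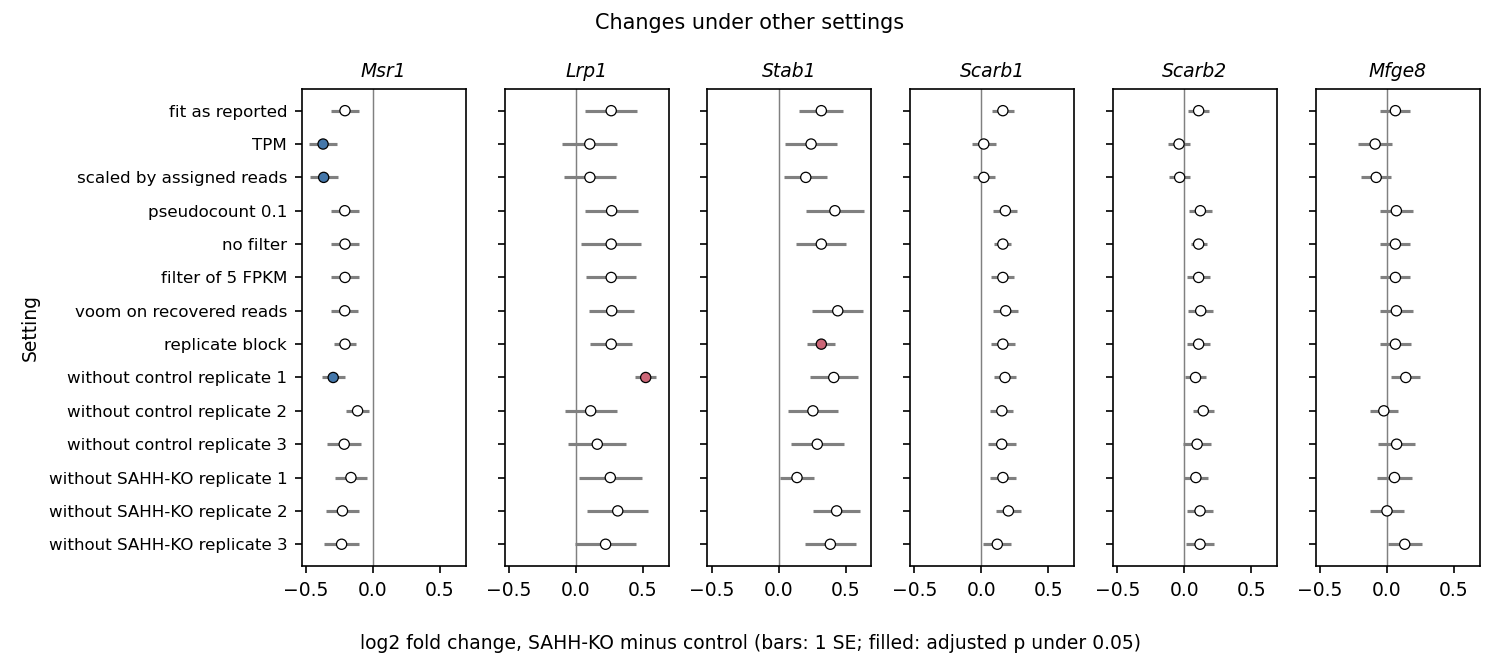
Log2 fold change (x axis, SAHH-KO minus control; bars are 1 SE) of the 6 tested genes other than Axl, under the reported fit and 13 other settings, 12 for Stab1 (y axis); filled points passed an adjusted p of 0.05, red as higher and blue as lower. Scarb1, Scarb2 and Mfge8 passed in no setting, Msr1 in 3, and Lrp1 and Stab1 in 1 each.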

How the data were processed

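RNA-seq libraries of 3 control and 3 SAHH-KO macrophage samples were analysed from the table of FPKM values that the authors deposited, with 1 column per library. The submitters' processing notes name GRCm38 and mm10 as builds and, as software, STAR, featureCounts, FastQC and Trim Galore; versions, strand setting and the choice of library size are not given in the sources used here. In the table the authors' FPKM times gene length came out as whole multiples of 1 step per library for 100% of values above 0 (within 0.01 read), from which reads were worked out. The library sizes so recovered were 1.05 to 1.07 times the assigned reads in control and 0.937 to 0.960 times in SAHH-KO.

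Genes with at least 1 FPKM in at least 3 libraries (10362) were fitted with limma 3.58.1 in R 4.3.3 on log2(FPKM + 1) with an intensity trend. The test was two-sided, with Benjamini-Hochberg adjustment over all these genes and 0.05 as the threshold. Of the 10 genes 7 passed the filter of 1 FPKM. The fit was also run on simulated reads with the same relative spread for every gene. Only better expressed genes were changed in them, so that run does not cover genes as low as Axl. Floors are 3 reads per library, or 3 reads over the group for the fold bound of Thbs1, and cover counting error only.

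The 10 genes and the lists were chosen with earlier results of these data known. Named beside the 10 are up to 4 called genes of each list with the smallest p, list genes and cell markers near 0, the 3 nearest in pattern to a called gene, and Ahcy; any other is said to be named after its value was seen, and 1 gene the rule names is not reported here. Coordinates are the table's, and all 10 equal GENCODE M21; none of the 10 shared over 0.0703% of its 50-base words with another gene, and Stab1 shared 1.09% of exon bases with Nt5dc2 on the other strand. Promoter windows are from RefSeq (GRCm38.p6), which matched 8 of the 10. Alternatives were TPM or assigned-read scaling, a pseudocount of 0.1, other filters, limma-voom on the reads, a replicate block, and each library left out; limma-voom on all genes with at least 10 reads was added after Olr1 was seen.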

Additional observations from a re-analysis of the deposited data

How the results depend on the processing

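Of the 10 genes, 1 was called higher in the reported fit, 2 with no filter (Axl and Olr1), 0 with a filter of 5 FPKM, which Axl does not pass, and 1 to 2 with each library left out in turn, the second being Lrp1 without control replicate 1. None was called lower by limma (0 at an unadjusted p under 0.05, and 0 by limma-voom), against 1 with TPM, 1 with assigned-read scaling and 0 to 1 with libraries left out, in each case Msr1. Of the other scavenger receptors 4 were called, and 7 with no filter, which added Cd5l, Ssc5d and Mrc1 (these and Anxa5 below were named after their values were seen). Of the bridging molecules 1 was called, against 2 with TPM or assigned-read scaling (Anxa5 added), 2 with no filter (Thbs1 added) and 0 with a filter of 5 FPKM. Counts over all genes, by direction, and the called genes of the other 4 lists, both directions added, stayed within 1.5 times in every planned setting. By direction, the engulfment machinery went from 5 higher and 4 lower to 2 and 7 with TPM or assigned-read scaling, and to 3 to 7 higher and 2 to 5 lower with libraries left out. With TPM all tested genes went from 2736 higher and 2782 lower to 2006 and 3894. The sheddases and regulators went from 3 lower to 1 with a filter of 5 FPKM. Each related gene named as risen or fallen from the fit kept its call and direction in every planned setting that tested it.

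Whether replicate numbers pair the libraries could not be told. Equally numbered libraries deviated from their group means with correlations of 0.095, 0.101 and -0.0056. Control replicates 1 and 2 went best with the SAHH-KO library of the same number, and control replicate 3 with SAHH-KO replicate 2. Deviations from a mean of 3 libraries depend on each other, so these correlations cannot settle it. With the replicate number as a block, 2 of the 10 genes were called higher, Axl and Stab1 (0.32, limma adjusted p = 0.0404), and 2729 and 2761 of all genes were called higher and lower. Depth limits Olr1, Axl, Marco and Mertk, which rest on at most 128 reads per library.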
